A study of Mus musculus with 47 samples.

Results

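The regions described are places where acetylation of lysine 18 of histone H3 (H3K18ac) was called after TGFβ1 treatment and not before it, outside H3K4me3 peaks. They are the H3K18ac peaks of control cells at 48 h that overlapped no control H3K18ac peak at 0 h and no control peak of H3K4me3, the trimethylation of lysine 4, at either time. They were thus chosen by the measured peak calls of these 4 lists, and their H3K18ac and H3K4me3 values are given only as a description. Of 20415 control H3K18ac peaks at 48 h, 9155 (44.8%) met this rule, out of 806216 peaks in the 32 peak lists of the series. With only H3K18ac peaks of −log10 q of at least 5 the number was 4766, and with the 48 h list cut by significance to the length of the 0 h list it was 3631. The 9155 are called gained distal regions here, where distal means outside H3K4me3 peaks and not a distance, since 87 of them overlapped an annotated promoter window. Of all 48 h peaks, 70.6% overlapped no 0 h peak whether or not H3K4me3 was there. The lists used were chromatin immunoprecipitation and sequencing (ChIP-seq) peaks of NMuMG cells, a mouse mammary epithelial line that undergoes an epithelial to mesenchymal transition under TGFβ1. Control cells (library names with sgCt) and Pbrm1 knockout (KO) cells (sgPbrm1), which lack a subunit of the PBAF form of the SWI/SNF remodeller, were untreated (0 h) or received 5 ng/ml TGFβ1 for 24 or 48 h. BRG1 was available in control cells at 0 h only, the histone marks in control cells at 0 and 48 h, and FOSL2, FOSB and PHF10 in both genotypes. Only PHF10 in control cells at 0 and 48 h had 2 libraries, so every other comparison is between single libraries and has no replicate check. The number of independent KO or control clones is not stated in the labels.

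H3K18ac is laid down by the acetyltransferases p300 and CBP and is found at active enhancers as well as promoters, whereas H3K4me3 marks promoters, so H3K18ac without H3K4me3 is a usual sign of an enhancer. H3K27ac is written by the same enzymes. FOSL2 and FOSB are FOS-family partners of JUN proteins in AP-1, a transcription factor that binds enhancers and is induced in epithelial to mesenchymal transition. BRG1 is an ATPase of SWI/SNF, which moves nucleosomes, and PHF10 is a subunit of PBAF.

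A small number of gained distal regions overlapped annotated promoter windows, and the sequence of those windows could be read. The overlap could be of a few bases, so the printed bases need not lie in the gained region. Only the regions, not the windows, were chosen to be free of H3K4me3. Of the 32851 RefSeq promoter windows on the assembled chromosomes (build GRCm38.p6, 250 bases before to 50 after the start), 93, of 87 genes, overlapped a gained distal region. In 6 of the 93 windows, of 5 genes, a FOSL2 peak of either genotype lay in the window itself. These windows are printed 5′ to 3′ on the gene's strand because each overlapped both a gained region and a FOSL2 peak. Capitals mark the AP-1 letters TGANTCA, where N is any base and the pattern reads the same on both strands. The promoter windows, written by gene, are as follows.
Gm38928, chr6:145977439-145977738, minus strand: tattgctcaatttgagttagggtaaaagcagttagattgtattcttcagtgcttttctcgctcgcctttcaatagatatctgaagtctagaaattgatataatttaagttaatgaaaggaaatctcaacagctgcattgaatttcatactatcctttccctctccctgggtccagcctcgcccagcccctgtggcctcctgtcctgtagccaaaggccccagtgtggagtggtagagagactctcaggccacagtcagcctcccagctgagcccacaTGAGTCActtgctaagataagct
5033421B08Rik, chr12:8510913-8511212, plus strand: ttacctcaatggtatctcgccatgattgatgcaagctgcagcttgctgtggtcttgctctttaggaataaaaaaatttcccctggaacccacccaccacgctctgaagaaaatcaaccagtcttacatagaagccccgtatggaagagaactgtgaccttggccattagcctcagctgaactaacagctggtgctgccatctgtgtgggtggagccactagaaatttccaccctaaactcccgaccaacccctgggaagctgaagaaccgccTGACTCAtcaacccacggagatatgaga
Gm30242, chr1:132150345-132150644, plus strand: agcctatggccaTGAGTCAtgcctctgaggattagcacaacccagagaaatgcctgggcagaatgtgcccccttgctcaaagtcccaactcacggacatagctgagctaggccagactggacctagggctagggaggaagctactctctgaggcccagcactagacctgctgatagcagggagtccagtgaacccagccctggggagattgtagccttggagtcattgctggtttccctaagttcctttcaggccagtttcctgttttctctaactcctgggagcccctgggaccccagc
Gm33659, chr7:113151351-113151650, plus strand: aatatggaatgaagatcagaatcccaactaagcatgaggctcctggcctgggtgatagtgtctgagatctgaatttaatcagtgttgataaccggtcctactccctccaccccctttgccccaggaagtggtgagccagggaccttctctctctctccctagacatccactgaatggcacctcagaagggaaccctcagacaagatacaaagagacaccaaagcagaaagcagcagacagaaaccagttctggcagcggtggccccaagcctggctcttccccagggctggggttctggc
Isg20, chr7:78913985-78914284, plus strand: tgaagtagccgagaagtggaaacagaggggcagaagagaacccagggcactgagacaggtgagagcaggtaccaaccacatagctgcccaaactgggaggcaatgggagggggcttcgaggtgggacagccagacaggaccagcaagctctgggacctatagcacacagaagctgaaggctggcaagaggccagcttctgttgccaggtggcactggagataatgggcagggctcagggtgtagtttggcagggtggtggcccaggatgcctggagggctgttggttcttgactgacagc

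The first 3 windows held the letters and those of Gm33659 and Isg20, which encodes an interferon-induced exonuclease, did not. The second window of 5033421B08Rik starts 1 base away and is not shown. At 5033421B08Rik and Gm33659 only the KO list had a FOSL2 peak in the window, and that peak did not overlap the gained region. The gained region at 5033421B08Rik ended at base 8510917, before the marked letters. At Gm38928 FOSL2 peaks of both genotypes overlapped the window and the gained region, with fold enrichments over input of 5.99 in control and 6.45 in KO. At Gm30242 a FOSL2 peak of each genotype overlapped the window, but only the KO peak, of fold 11.1, reached the gained region. At Isg20 only the KO list had a FOSL2 peak there, of fold 6.70, beside a BRG1 0 h peak of fold 3.87. Over all 93 windows TGANTCA was present in 15 (16.1%, exact Clopper-Pearson 95% interval 9.32 to 25.2%), against 7.81% of all promoter windows. The share was 17.7% of 79 windows on H3K18ac regions that were kept from 0 to 48 h outside H3K4me3, 10.1% of 89 on lost ones and 2.72% of 4080 on H3K18ac regions gained at H3K4me3. The GC box letters GGGCGG, searched on both strands as GGGCGG and CCGCCC, went the other way, with 17.2% of the 93 windows, 35.7% of all windows and 83% of the windows on regions gained at H3K4me3. The cyclic AMP response element TGACGTCA was in 0 of the 93 windows, an upper limit of 3.89%, and in 1.79% of all windows. A match is a description of letters and not of binding.

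The gained distal regions were narrower and of lower fold, by their medians, than the other classes of H3K18ac peaks at 48 h, and these values belong to the lists that chose them. Their median width was 385 bp (222 to 4530 bp) and their median fold enrichment was 4.36 (2.02 to 20.4), as the authors' peak caller gave it. Kept distal regions, which are the 4289 peaks at 48 h that overlapped a 0 h peak and no H3K4me3, had medians of 526 bp and 5.09. The 6590 lost distal regions, taken from the 0 h list of 13226 peaks, had medians of 304 bp and 5.11, the latter on the scale of another list. The 5264 gained peaks at H3K4me3 had medians of 492 bp and 14.7, and the 1707 kept ones 810 bp and 46.3. At the edge of the rule, members at Nmnat2 and Cd24a touched a 0 h H3K18ac peak with a gap of 0 bp and one at Rad51b was 2 bp from one. Peaks at Ier5, Gpm6b and Dad1 were left out for overlaps of 2, 3 and 4 bp. Whether the starts of the 0 h H3K18ac list count from 0 or 1 is not stated, so gaps and overlaps with that list may be off by 1 bp, and moving that list by 1 bp either way left 9154 members. The 0 h list is also written in another form than the 48 h list, with fewer decimals. Any part of this difference in membership, beyond the 1 bp shift, was not tested. Of the members, 1703 (18.6%) lay within 1 kb of an excluding peak. Cells had the marks of epithelium: all 8 epithelial marker genes examined, among them Epcam, Cdh1 and Krt8, had both H3K4me3 and H3K27ac peaks at 0 h, and of 25 markers of other cell types 16 had H3K4me3 and 9 had H3K27ac.

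BRG1 was less frequent at 0 h where H3K18ac was later gained than where it was kept or lost. A BRG1 peak at 0 h overlapped 1550 of the 9155 gained distal regions (16.9%, interval 16.2 to 17.7%), against a background of 40.9% over all control H3K18ac peaks at 48 h, promoters included. The share was 44.8% in kept distal regions and 27.2% in lost distal regions. Gained minus kept was -27.8 percentage points (Newcombe 95% interval -29.5 to -26.2), and gained minus lost was -10.3 points (-11.6 to -8.94). All such intervals cover counting error only, since each list comes from a single library and neighbouring regions are not independent. A BRG1 centre lay within 1 kb of the region's centre for 27.7% of gained (background 47.7%), 53.6% of kept and 39.6% of lost regions. With only BRG1 peaks of −log10 q of at least 5, the gained and kept shares were 1.88% and 8.60%. Kept regions had the higher share in each of 4 bins of H3K18ac fold, in which BRG1 overlapped 23% of the weakest and 14.1% of the strongest gained regions, and 54.9% and 42.4% of the kept regions in the same bins.

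H3K27ac, the mark most often used to call active enhancers, was found at 48 h only at a minority of the gained distal regions and at a larger share of the kept ones. At 0 h an H3K27ac peak overlapped 159 gained distal regions (1.74%, background 39.4%), and at 48 h it overlapped 1241 (13.6%, background 49.2%). Of the members, 1209 (13.2%, background 12.3%) had H3K27ac at 48 h only, 127 had it at 0 h only, 32 at both times and 7787 (85.1%) at neither. Kept distal regions had H3K27ac at 48 h only in 29.9% and lost ones in 1.65%. The lost distal regions were the mirror image, with 8.63% overlapping H3K27ac at 0 h and 2.15% at 48 h. The H3K27ac list as a whole went from 20507 to 15962 peaks, so the larger share at 48 h stood in a shorter list. Kept distal regions had more H3K27ac at each time, 22% at 0 h and 44.1% at 48 h, and gained minus kept was -20.2 points (-21.5 to -19) and -30.6 points (-32.2 to -28.9). H3K27ac at 48 h followed the strength of the H3K18ac peak: from the weakest to the strongest bin it overlapped 3.89, 5.64, 9.18 and 35.5% of gained regions and 14.8, 20.2, 30.6 and 66.6% of kept regions. Median width also rose over these bins, from 318 to 555.5 bp in gained and from 365 to 701 bp in kept regions. The part of width in these shares was not tested. Gained regions with BRG1 at 0 h had H3K27ac at 48 h in 12.7% of 1550, and those without in 13.7% of 7605, and these intervals (11.1 to 14.5% and 13 to 14.5%) overlapped.

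**Figure D1:**
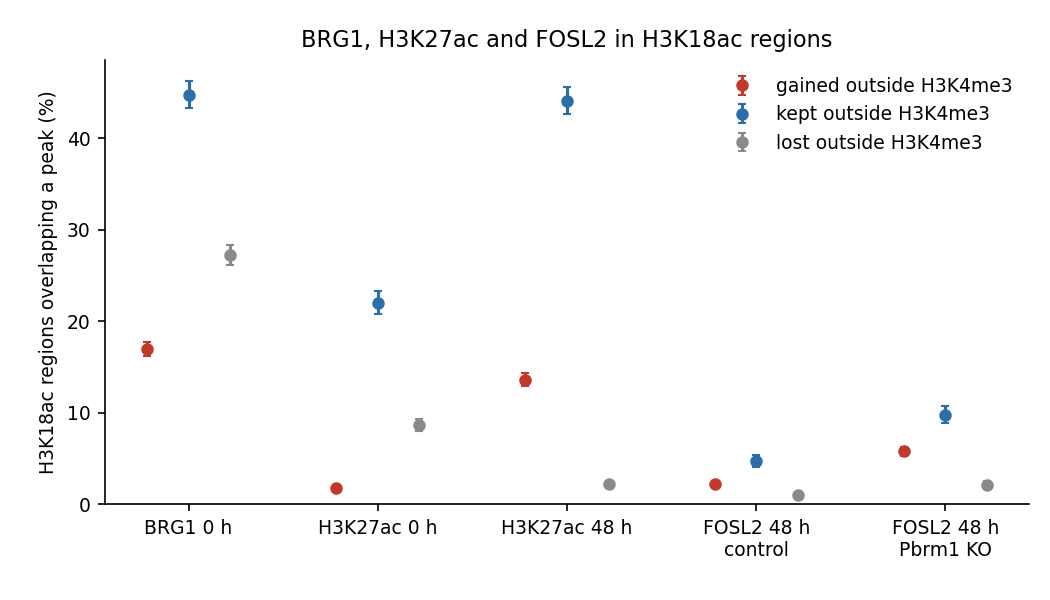
Share of H3K18ac regions outside H3K4me3 that overlapped a peak of each list, for gained, kept and lost regions, with exact 95% intervals that cover counting error only. Gained regions were lowest for BRG1 (16.9%) and for H3K27ac at 0 h (1.74%), and lay between kept and lost regions for H3K27ac at 48 h and FOSL2.

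**Figure D2:**
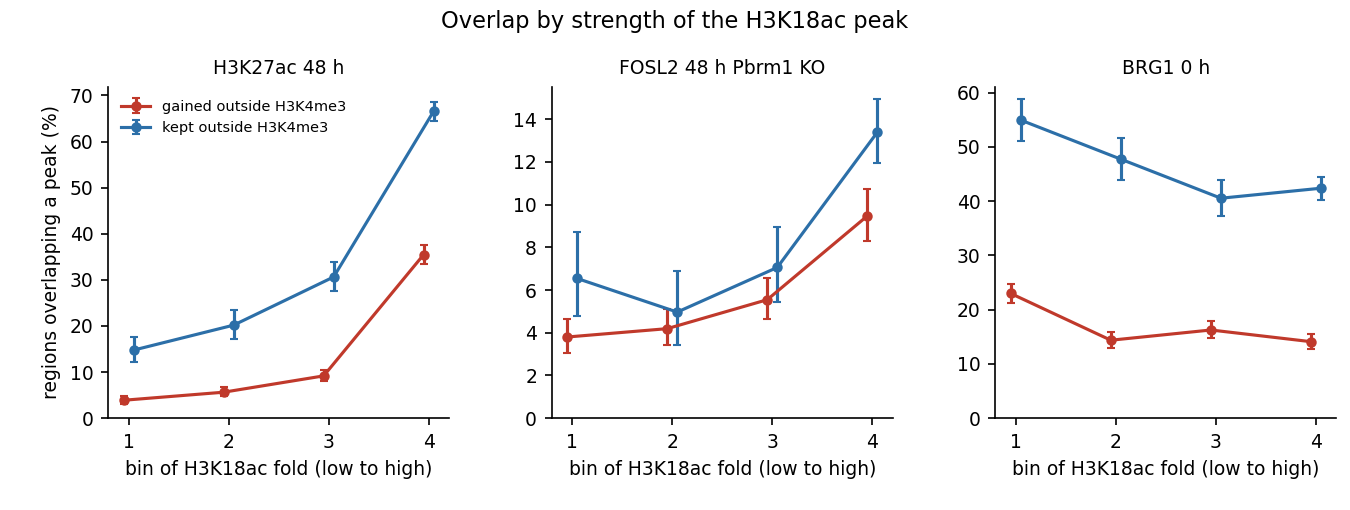
Share of gained and kept distal regions overlapping H3K27ac at 48 h, KO FOSL2 at 48 h or BRG1 at 0 h, in 4 bins of H3K18ac fold enrichment set on the gained regions, with exact 95% intervals. H3K27ac in gained regions went from 3.89% in the weakest bin to 35.5% in the strongest, while BRG1 went from 23 to 14.1%.

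All 10 of the strongest gained distal regions by fold carried an H3K27ac peak at 48 h. The highest, of fold 20.4, lay 13501 bp from Rab38, a small GTPase of melanosome transport (chr7:88505073-88505584), and it already had an H3K27ac peak at 0 h, as none of the other 9 did. The second, of fold 19.2 (chr8:116079205-116080636), was over 100 kb from any protein-coding gene end and was the single one of the 10 with BRG1 at 0 h. Others lay inside Vmp1, an autophagy protein of the endoplasmic reticulum (14.1), and Adamts12, a secreted metalloproteinase (14.1). Further ones were near Gja5, the gap junction protein connexin 40 (14.9), and Pdgfc, a ligand of PDGF receptors (13.5). None of the 10 overlapped a FOSL2 peak.

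FOSL2 lay beside the gained distal regions more than on them. The 0 h FOSL2 lists held 7 peaks in control and 5 in KO and overlapped no member (background 0.0049% for each). At 48 h a FOSL2 peak overlapped 200 members in control cells (2.18%, interval 1.89 to 2.51%, background 2.21%) and 527 in KO cells (5.76%, interval 5.29 to 6.25%, background 5.09%). A FOSL2 peak centre lay within 1 kb of the region's centre for 1105 members (12.1%, background 9.14%) in control and 2083 (22.8%, background 16.4%) in KO. Kept distal regions had 15.5 and 25.2%, and lost distal regions 5.02 and 9.38%. The profile showed a trough at the centre with a shoulder on each side: control FOSL2 centres numbered 0.29 and 0.19 per 100 members in the 250 bp bins on either side of the centre, and 2.22, 2.32, 2.26 and 2.36 in the bins centred 375 and 625 bp away. In KO the same bins held 0.67 and 0.54, then 4.36, 4.37, 4.24 and 4.47. Kept and lost regions had the same trough, BRG1 a shallower one (2.84 and 2.75 against 3.82 and 3.84 at 375 bp), and H3K27ac at 48 h was centred on the regions (5.60 and 5.70).

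**Figure D3:**
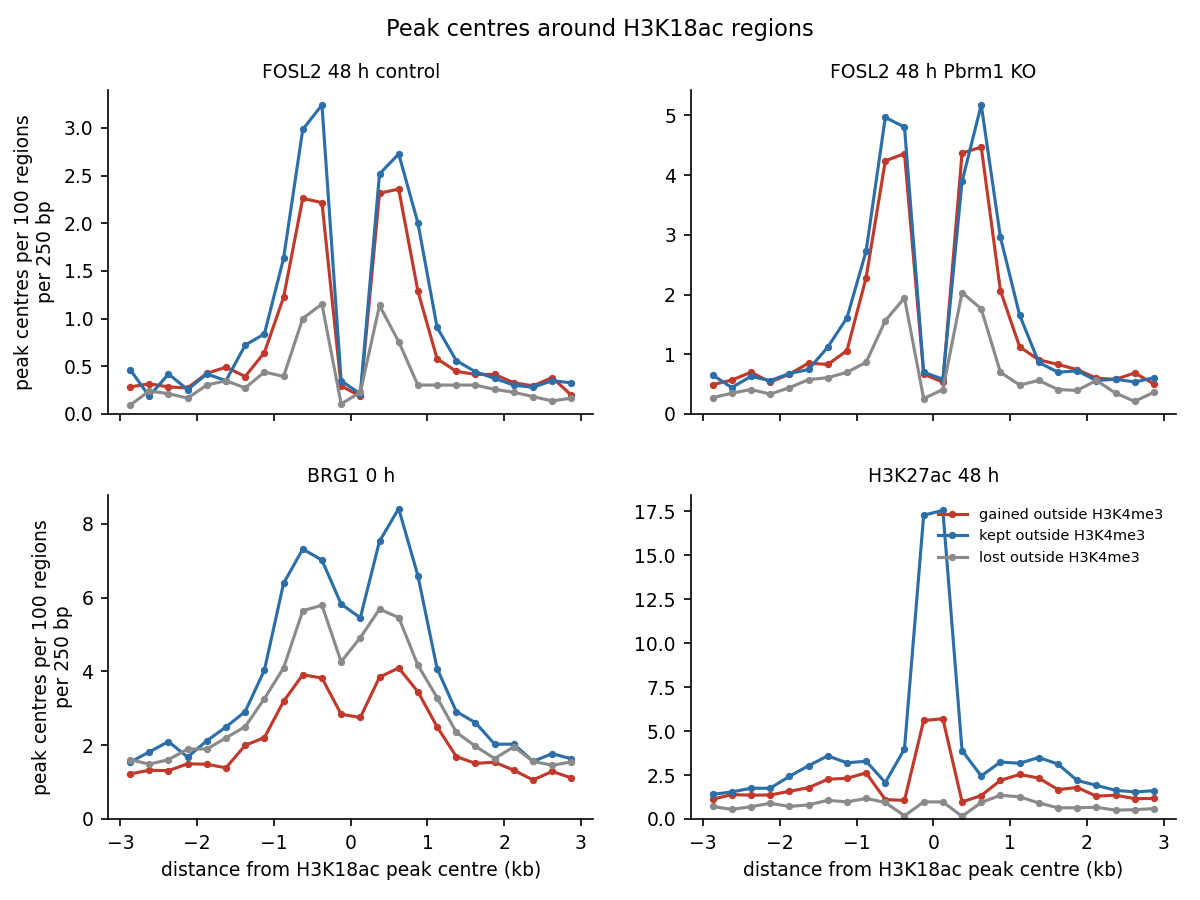
Peak centres of control and KO FOSL2 at 48 h, BRG1 at 0 h and H3K27ac at 48 h per 100 regions in 250 bp bins, by distance from the H3K18ac peak centre, for gained, kept and lost distal regions. FOSL2 centres in gained regions were 2.22 to 2.36 per 100 in control and 4.24 to 4.47 in KO at 375 to 625 bp, and under 0.7 at the centre, where H3K27ac was highest.

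Seen from the factor, 886 of the 3444 control FOSL2 peaks (25.7%, interval 24.3 to 27.2%) had the centre of a gained distal region within 1 kb, and 215 (6.24%) had one on both sides. Kept distal regions lay within 1 kb of 16.3% of these peaks and on both sides of 3.08%. Lost ones had 8.71 and 0.958%, and both classes hold fewer regions. Of the 7381 KO FOSL2 peaks, 1686 (22.8%) had a gained distal region within 1 kb and 396 (5.37%) had one on both sides. For kept distal regions these shares were 12.7 and 2.25%, and for lost ones 7.68 and 0.772%.

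More gained distal regions carried FOSL2 in KO than in control cells, and few carried it in control alone. The same held over all control H3K18ac peaks at 48 h, with FOSL2 at 2.21% in control and 5.09% in KO. FOSL2 overlapped 168 members in both genotypes (background 1.89%), 359 in KO only (3.92%, background 3.21%) and 32 in control only (0.350%, background 0.328%). KO minus control was 3.57 percentage points (interval 3.15 to 3.99). Control and KO FOSL2 overlapped 4.69 and 9.75% of kept distal regions and 1.02 and 2.09% of lost ones. The KO list was longer, and with that list cut by significance to the control's 3444 peaks the difference was 1.47 points (1.13 to 1.82), with 3.66% of members in KO against 2.18%. BRG1 at 0 h overlapped 46.4% of the members with FOSL2 in both genotypes, 35.9% of those with FOSL2 in KO only and 15.5% of those with neither. H3K27ac at 48 h overlapped 17.9, 24.8 and 13% of the same sets, with intervals of 12.4 to 24.5%, 20.4 to 29.6% and 12.3 to 13.7%. H3K18ac in KO cells is not analysed here, so whether the members with KO FOSL2 were acetylated there was not measured. Gained minus kept for overlap was -2.50 points (-3.23 to -1.83) in control and -3.99 (-5.02 to -3.0) in KO. In a fixed window of 500 bp at each centre these were -0.51 (-1.19 to 0.11) and -0.33 (-1.27 to 0.57), and both intervals include 0.

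The members with the highest control FOSL2 fold lay near genes of several kinds. The first was 29214 bp from Noct, a NADPH phosphatase under circadian control (chr3:51194990-51195233), with FOSL2 folds of 19 in control and 21.9 in KO and a BRG1 0 h peak of fold 3.10. A member inside Ncald, a neuronal calcium sensor, had 15.5 and 28.8. One 36410 bp from Csf1, the macrophage growth factor, had 13.3 and 16.5 with BRG1 of 3.29. One 22967 bp from Klf6, a zinc finger transcription factor, had 12.6 and 22.2 and no BRG1 peak. All 10 members ranked this way also had a KO FOSL2 peak, 3 had BRG1 at 0 h and 1 had H3K27ac at 48 h. Fold enrichments of different lists are not on a shared scale, so the control and KO values are given side by side only. Among members with FOSL2 in KO only, a ranking added after the values were seen, the highest was a second region in Ncald, on the other side of the same KO FOSL2 peak of fold 28.8. The second was inside Tnr, the matrix protein tenascin R (21.6), and the seventh inside Plxna2, a semaphorin receptor (17.7). FOSB overlapped 5 members in control (0.0546%, background 0.137%) and 1 in KO (0.0109%, background 0.0343%), from lists of 188 and 31 peaks. The strongest, of fold 9.86, lay in Zcchc2, and the KO one, of fold 5.19, was in Cblb, a ubiquitin ligase, where FOSL2 was also present in both genotypes (8.07 in control, 10.2 in KO).

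PHF10 was scarce in the gained distal regions, as it was in kept and lost ones, and most frequent there in the longest lists. In control cells it overlapped 0.393 and 0.120% of members in the 2 libraries at 0 h (backgrounds 30.3 and 32.5%), 0.306% at 24 h (33.8%), and 2.92 and 4.23% in the 2 libraries at 48 h (35.8 and 36.9%). Both 48 h libraries were above both 0 h libraries. The 48 h libraries overlapped 4.62 and 5.81% of kept and 4.05 and 5.99% of lost distal regions. Untreated libraries averaged 0.257% ± 0.193 (SD, n = 2). The 48 h libraries averaged 3.57% ± 0.927 (SD, n = 2), which is 3.32 points more, with an exact two-sided permutation p = 0.333, the smallest that 2 against 2 libraries allow. The labels do not say whether the 2 libraries of a time are separate cultures. List lengths were 11285 and 14731 peaks at 0 h and 43549 and 102434 at 48 h, and with all 4 cut by significance to 11285 peaks the difference was 0.164 points (exact permutation p = 0.667). In KO cells PHF10 overlapped 0.109% at 0 h (background 31.7%) and 9.58% at 48 h (background 41.1%), the latter from 158815 peaks, which overlapped 13.8% of kept and 13.2% of lost distal regions. Of the members, 148 (1.62%, background 34.5%) had PHF10 in both control libraries at 48 h, 138 of them also in KO, and 497 (5.43%, background 4.01%) had it in KO and in neither control library, as did 7.23% of kept and 6.93% of lost distal regions. The members with PHF10 in both control libraries had other acetylation more often than the rest. Of the 148, 59 had H3K27ac at 0 h, as did 100 of the 9007 others. H3K14ac, another acetylated lysine of histone H3, was at 77 of the 148 at 48 h and at 64 of the others. Over all control H3K18ac peaks at 48 h, promoters included, the shares were 39.4% for H3K27ac at 0 h and 35.3% for H3K14ac at 48 h. The same counts for kept or lost distal regions with PHF10 are not given here. PHF10 in KO was also most frequent in the weakest of the 4 bins of members by H3K18ac fold, 20.1% against 5.46% in the strongest. Kept distal regions in the same bins had 29.7 and 9.57%. The first control library at 48 h overlapped 6.56 and 1.48% of members in these bins.

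**Figure D4:**
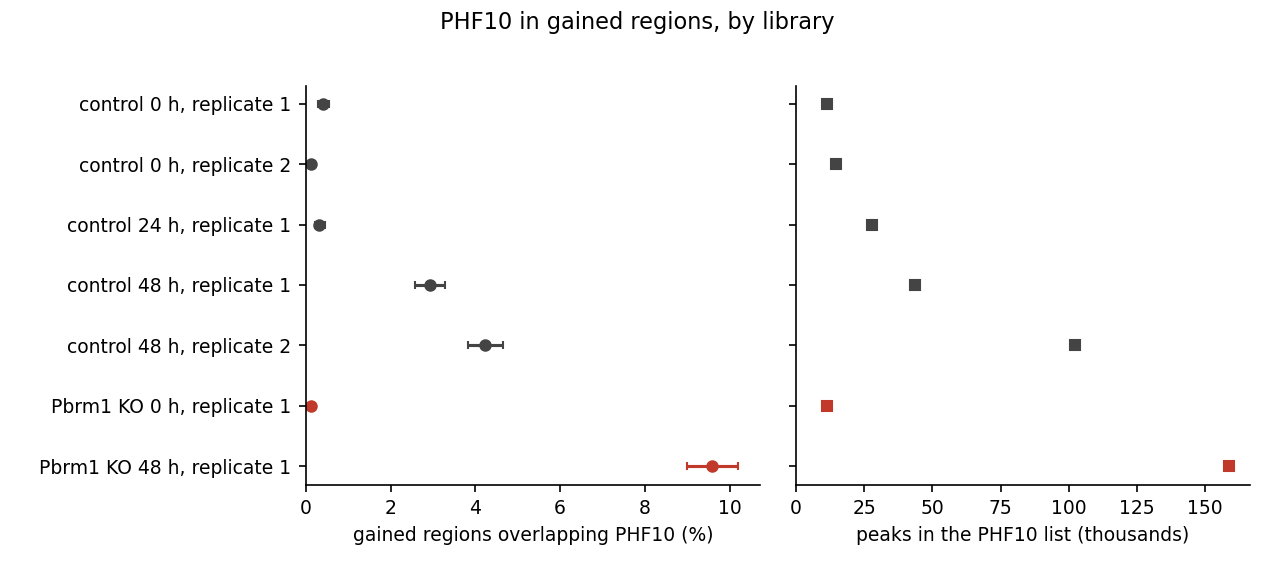
Share of gained distal regions overlapping the PHF10 list of each library, with exact 95% intervals (left), beside the number of peaks in that list (right). The KO library at 48 h has both the highest share (9.58%) and the longest list (158815 peaks).

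ATF3, a bZIP factor of the stress response, overlapped few gained, kept or lost distal regions in control cells at 48 h and more of each in KO cells. It overlapped 46 members (0.502%, background 34.2%) in control and 444 (4.85%, background 35.4%) in KO, from lists of 45716 and 144513 peaks. Kept distal regions had 0.490 and 6.97%, and lost ones 0.713 and 6.08%. H3K14ac at 48 h overlapped 141 members (1.54%, background 35.3%), 2.68% of kept and 1.35% of lost distal regions. Of the 141 members, 67 had H3K27ac at 0 h, against 92 of the 9014 members without H3K14ac. Over all control H3K18ac peaks at 48 h the share with H3K27ac at 0 h was 39.4%.

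Together, 6308 members (68.9%) had no peak of BRG1 at 0 h, H3K27ac at 48 h or FOSL2 at 48 h of either genotype, against a background of 37.3% over all control H3K18ac peaks at 48 h. The share was 29.8% in kept distal regions and 70.8% in lost distal regions, with intervals of 67.9 to 69.8% for gained and 69.7 to 71.9% for lost.

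The mesenchymal, Hippo, actin and epithelial lists had the largest shares of genes with a gained distal region, above the share of all protein-coding genes. Of 21883 protein-coding genes, 2643 (12.1%) had one in their span or within 10 kb. Among the 45 mesenchymal and TGFβ response genes 27 did (60%, interval 44.3 to 74.3%), among 20 Hippo pathway targets 14 (70%), and among 26 actin cytoskeleton and focal adhesion genes 16 (61.5%). Ankrd1, Ccn1 and Ccn2 are on both the mesenchymal and the Hippo list. Among 35 epithelial genes 11 did (31.4%, interval 16.9 to 49.3%). Shares were lower for the AP-1 and ATF genes (4 of 20, 20%), SWI/SNF subunits (4 of 26, 15.4%) and acetyltransferases and bromodomain readers (1 of 12, 8.33%). They were also lower for housekeeping genes (3 of 20, 15%) and markers of other cell types (5 of 25, 20%). Of these lists, only the acetyltransferases and readers were below the 12.1% of all genes, and every interval included that share. Lost distal regions lay at 26.7% of the mesenchymal, 25% of the Hippo, 42.3% of the actin and 25.7% of the epithelial genes, beside 12.8% of all genes. Kept distal regions lay at 37.8, 50, 38.5 and 31.4% of them, beside 7.31% of all genes. Any control H3K18ac peak at 48 h lay at 75.6, 100, 92.3 and 68.6% of the same lists, beside 45.1% of all genes. The other lists had 90% (AP-1 and ATF), 84.6% (SWI/SNF), 100% (acetyltransferases and bromodomain readers), 75% (housekeeping) and 32% (other cell types). Longer genes hold more regions, with a median span of 157 kb for the 227 genes with 5 or more members against 17.2 kb for all genes. The median span was 28.9 kb for the mesenchymal list, 24.9 kb for the Hippo list, 47.9 kb for the actin list and 21 kb for the epithelial list, and 31.6 kb for the SWI/SNF list. The part of gene length in these counts was not tested.

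Among secreted and matrix genes, Ltbp2, a microfibril protein related to the TGFβ-binding LTBPs, had 6 members with a highest fold of 10.2, 4 of them with H3K27ac at 48 h. Ccn2, the matricellular growth factor CTGF, had 6 members (highest 8.49, chr10:24589587-24591052), 2 with BRG1 at 0 h, none with H3K27ac at 48 h and 1 with KO FOSL2 of fold 8.42. Thbs1, thrombospondin 1, which activates latent TGFβ, had 4 (highest 7.54).

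Of the receptors and signalling genes, Itgav, the αv integrin chain, had 4 members (highest 8.17), 1 with control FOSL2 of fold 6.25 and 2 with KO FOSL2 up to 10.6. Itgb6, the β chain of a TGFβ-activating integrin, and Pmepa1, a TGFβ-induced inhibitor of Smad signalling, had 7 each. Smad7, an inhibitory Smad, had 6 (highest 6.60), 2 with BRG1. Among transcription factors, Snai1 had 3 members, 2 with BRG1 at 0 h and 1 with KO FOSL2 of fold 11.5. Zeb2 had 2 members and Zeb1 1, none with BRG1, H3K27ac or FOSL2. Vim, the intermediate filament vimentin, had 1 (5.36), with BRG1 at 0 h, H3K27ac at 0 h and FOSL2 in both genotypes (7.81 in control, 10.7 in KO).

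Of the actin genes, Tns1, a focal adhesion tensin, had 12 members, Actn1, α-actinin, had 11 and Filip1l had 8. Cald1, the actin-binding protein caldesmon, had 6, with the highest fold of the list (9.23). Both members of Src, the tyrosine kinase, had BRG1 at 0 h, H3K27ac at 48 h and KO FOSL2 (up to 9.03). Epithelial genes were among those with members too: Cdh1, E-cadherin, had 7 (highest 4.77), Cldn4, a tight junction claudin, had 6 (highest 5.93, 3 with H3K27ac at 48 h), and Ehf, an epithelial ETS factor, had 2 (highest 6.60). Of the AP-1 and ATF genes, Atf6, a transmembrane sensor of endoplasmic reticulum stress, had 10, and Atf7 had 1, with FOSL2 of fold 10.4 in control and 14.3 in KO.

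The regions came in groups along the chromosomes. Joined over gaps of up to 12.5 kb, the 9155 members formed 5057 clusters, and 67.1% of members shared a cluster with another, against 57.8% of kept and 50.1% of lost distal regions, which are fewer. The largest cluster held 19 members (chr15:11522440-11575477) more than 100 kb from a protein-coding gene end. The next was at Ccn4, a WNT-induced matricellular protein, with 18 in 51170 bp, and Itgb3, the β3 integrin chain, had 17 in 36189 bp. Of the members, 42.7% lay inside a protein-coding gene and 15% lay outside genes with no gene end within 100 kb, and the median distance to a gene end was 31877 bp.

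The genes with the most members in their span and 10 kb to either side were Pde4d, a cyclic AMP phosphodiesterase (23 in 1302 kb), Ltbp1, which holds latent TGFβ in the matrix (21 in 387 kb), Glis3, a zinc finger factor (20), and Itgb3 (19 in 62.5 kb, 6 with H3K27ac at 48 h). Rad51b, Dlgap1, Ppfibp1, Mecom, Apbb2 and Stard13 had 19 to 16. These differed in what surrounded the members: Itgb3, Ppfibp1 and Apbb2 had no lost distal region, while Pde4d had 9. Ppfibp1, which encodes the scaffold protein liprin β1, is mapped as an example. Between 50 kb before and 150 kb after its start there were 18 gained regions and 1 kept region. The same stretch held 10 BRG1 peaks at 0 h, 1 H3K27ac peak at 0 h and 5 at 48 h, and 2 FOSL2 peaks in control and 3 in KO. Few of these lay on the gained regions. Of the 18, 2 overlapped BRG1 at 0 h, 4 H3K27ac at 48 h, 0 control FOSL2 and 1 KO FOSL2. The H3K27ac peak at 0 h, and 1 peak each of BRG1 and 48 h H3K27ac, lay at the H3K4me3 peak of the gene's start.

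**Figure D5:**
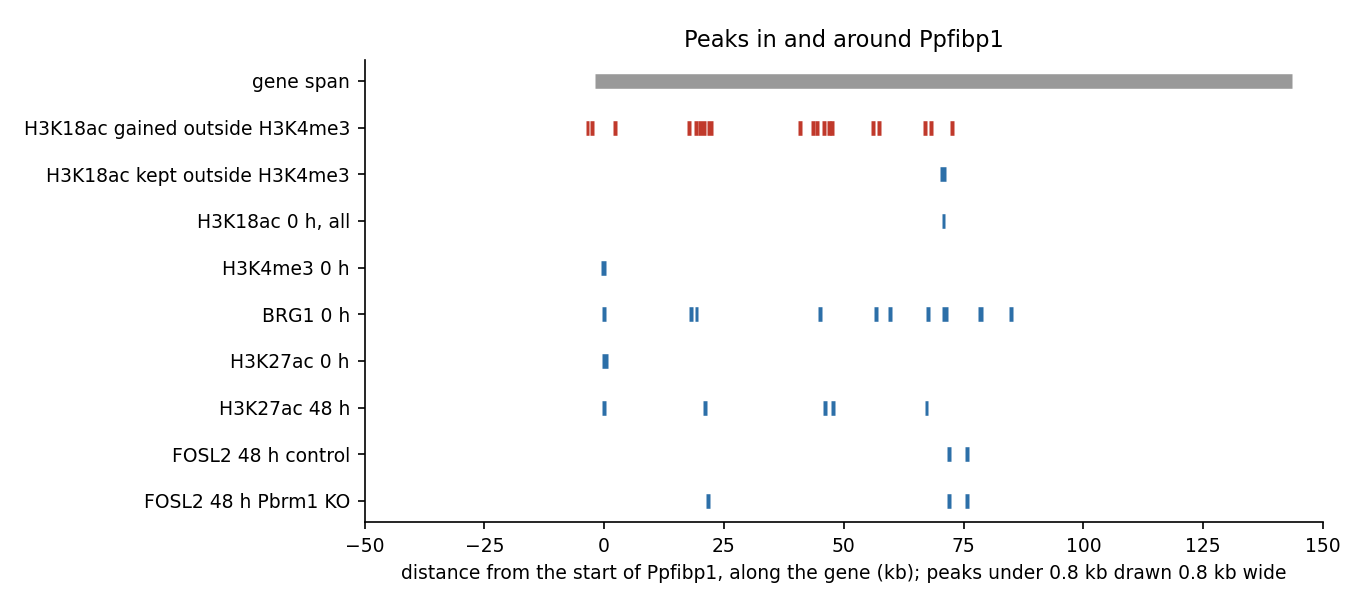
Peaks along Ppfibp1 by distance from the gene's start in kb, a row for each list, with the gene span in grey and gained distal regions in red. The 18 gained regions lie in and just before the gene, whose 0 h H3K18ac list shows 1 peak.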

How the data were processed

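ChIP-seq of NMuMG control and Pbrm1 KO cells gave 32 deposited peak lists, 1 a library, used with build mm10. Tools named in the submitters' processing notes are MACS3 3.0.0a7, deepTools 3.5.1, Bowtie2 2.3.3, Partek 11.0.24.0325 and fastp 0.19.5, with no role given. Per the labels' protocols, BRG1, PHF10 and ATF3 chromatin was crosslinked with DSG and formaldehyde and the rest with formaldehyde alone. The deposited pileup signal was not used. The deposited −log10 q-values and the authors' fold enrichment, a ratio of ChIP over input, served to describe, rank and filter peaks within a list. The BRG1 and PHF10 lists reach down to lower −log10 q values (1.05 or less at the weakest peak) than the other lists (1.3 or more). Read totals were not used, so depth is unknown and list length was not corrected for it.

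Unplaced sequences were left out, leaving chromosomes 1 to 19, X and Y, and starts are written 1-based. Lists were compared by overlap of 1 bp with Python 3.11.15, pandas 2.3.3 and SciPy 1.17.1. Shares have exact Clopper-Pearson 95% intervals, and differences Newcombe intervals. The interval of KO minus control, over the same regions, is the paired normal one. The overlap code was tested on simulated intervals. Tests are the exact two-sided permutation of PHF10 shares and its sign-flip form with the replicate number as a block. The labels do not state whether PHF10 libraries with the same replicate number share a culture or batch. Genes are the 21883 protein-coding genes of the RefSeq table, by span. Promoter sequences are from RefSeq, GRCm38.p6. Regions named are the 10 strongest by fold, the 10 strongest by control FOSL2 fold, those with FOSB, regions of up to 30 listed genes by fold and the 10 genes with most members. Pmepa1, Snai1, Zeb2, Cdh1 and Atf7, which ranked below the 30, the KO-only FOSL2 regions, the promoter windows, the clusters and the Ppfibp1 map were chosen after values were seen. Some genes that the rule names are not reported here. The members and gene lists were chosen with earlier results of these data known. The H3K4me1 lists (86.3 and 91.3% of peaks in H3K4me3) were not used to describe distal regions.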

Additional observations from a re-analysis of the deposited data

How the results depend on the processing

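No result changed direction under any alternative tried, but 24 values moved beyond their interval or by more than 1.5 times. For PHF10 only the direction was compared, so its changes in size, given below, are not among the 24. The number of gained distal regions was 4766 with H3K18ac peaks of −log10 q of at least 5 and 3631 with the 48 h list cut to the length of the 0 h list, and the number of genes within 50 kb was 5533. Gained minus kept in percentage points, for BRG1, was -23 in a 500 bp window, -6.72 with −log10 q of at least 5 in the second list, -18.6 with 50% overlap and -25.9 for centres within 1 kb, an alternative chosen after seeing the data. For H3K27ac at 0 h it was -22.1 with the stricter H3K18ac list, -15.2 with a 1 kb margin, -18.3 in the window, -16.9 with the stricter second list, -19 with 50% overlap and -22.6 for centres. For H3K27ac at 48 h it was -22.1 with the margin, -28.7 in the window and -27.4 with the stricter second list. For FOSL2 it was -0.51 in control and -0.33 in KO in the window, -0.68 and -0.93 with 50% overlap, and -3.39 and -2.47 for centres. KO minus control for FOSL2 was 1.47 points at equal list length and 10.7 for centres. The cause of these moves was not tested. For PHF10, leaving out 1 library gave 2.66 to 3.97 points, the stricter lists 0.279 and the lists cut to the shortest 0.164. With the replicate number as a block the PHF10 difference was 3.32 points with an exact sign-flip p = 0.5, the smallest possible with 2 pairs. The correlation of replicate differences between the times over 20415 peaks was 0.0047. These are differences in overlap calls, so the value cannot decide whether libraries of the same number were paired. Single libraries, unknown depth and unequal list lengths limit every comparison here.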

Other observations

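Chromosomes 3 and 13 held 7.09 and 6.72% of the gained distal regions and 4.27 and 3.57% of the H3K18ac peaks gained at H3K4me3, while chromosome 4 held 3.66 and 7.24%. Kept distal regions had 7.51, 5.83 and 3.24% and lost ones 7.39, 5.17 and 3.82% on chromosomes 3, 13 and 4.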
